A study of Mus musculus with 5 samples.

Results

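The genes described here encode the proteins of the cytosolic ribosome and the factors that load it, move it along mRNA and regulate it. They are 146 of the 49315 genes in the count table, namely 86 ribosomal proteins (35 of the small and 51 of the large subunit) and 60 translation factors. They were chosen by symbol: Rpl and Rps names with Rpsa and the stalk genes Rplp0, Rplp1 and Rplp2, and every Eif1 to Eif6, Eef1 and Eef2 name, without the eIF2 kinases and without symbols marked as pseudogenes by -ps, at a minimum of 50 counts summed over the libraries. Of 152 genes whose symbols fitted, 6 fell under that minimum, with 0 to 25 counts each (Eef1a2, Eif2c5, Eif4e1b, Rpl10l, Rpl32l and Rps12l1). All 146 passed the filter on low counts. RNA came from lung endothelial cells. The TET2KO group (2 libraries) lacked TET2 in the endothelium, the WT group (3 libraries) was wild type, and both had received angiotensin II, a vasoconstrictor peptide, for 28 days. TET2 oxidises 5-methylcytosine in DNA. The Cre driver, the deleted exons, the ages and the way the cells were isolated are not given in the sources used here. They also do not say that the libraries are of different animals. The p-values below thus measure the spread between these libraries only, and part of it may be technical.

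A cytosolic ribosome is built from rRNA and one copy of most ribosomal proteins, with the acidic stalk proteins present in several copies, so the proteins are needed in near-equal amounts. Initiation factors bring the initiator tRNA and the mRNA to the small subunit, and elongation factors deliver aminoacyl-tRNA and translocate the ribosome. Many ribosomal protein mRNAs, and those of several factors, begin with a run of pyrimidines, the TOP motif, through which mTORC1 and LARP1 control how well they are translated, a step that mRNA levels do not show.

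Total counts were 31239463 and 30035235 in the TET2KO libraries, against 27346804, 35440257 and 31005444 in the WT libraries. The first principal component of log2 CPM held 57.5% of the variance and set WT replicate 2 apart. Tet2 had 4608 and 5188 counts in TET2KO libraries, against 4018, 5142 and 4130 in WT libraries, which checks nothing where the deleted exons are unknown. All 16 endothelial markers, among them Pecam1, Cdh5 and Cldn5, were counted in every library, beside markers of leukocytes. The 8 general leukocyte markers summed to 0.487% and 0.447% of counts in TET2KO libraries, where the 16 endothelial markers summed to 0.696% and 0.695%. In WT libraries the sums were 0.617%, 0.511% and 0.575%, against 0.398%, 0.242% and 0.4995% for endothelial markers. The leukocyte marker Ptprc was above Pecam1 in every library, at 1163 to 1513 against 415 to 998 CPM. Another, Cd52, was below Pecam1 in every library. The log2 fold changes in the authors' deposited table matched, with a median absolute difference of 5.68e-05 over 11186 genes, WT replicate 3 and both TET2KO libraries over WT replicates 1 and 2, and the next best split of the libraries missed them by 0.106. That is not the labelled comparison. All results below therefore follow the labels. The main results on ribosomal proteins, and some others, are also given without WT replicate 3.

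Translation genes filled a large part of the transcriptome. The ribosomal proteins took 7.20% and 6.38% of summed TPM (a level per unit of gene length, with each library scaled to the same total) in TET2KO libraries, against 7.88%, 4.94% and 9.76% in WT libraries. The 77 core proteins, leaving out paralogs and retrocopies, ranged in mean level over the 5 libraries from 164 TPM for Rps15a to 3656 TPM for Rplp1, with a median of 685 TPM. The 60 factors had a median level of 69.6 TPM and spanned a far wider range. Eef1a1, the elongation factor that delivers aminoacyl-tRNA, was the most abundant of all 146 genes at 7090 ± 289 TPM in TET2KO (SD, n = 2) and 7828 ± 1846 TPM in WT (SD, n = 3). It supplied 39.6% and 39.7% of all factor TPM in TET2KO libraries, against 41.5%, 40.1% and 43.0% in WT libraries. Next in order came Rplp1, a protein of the stalk that binds elongation factors, then Rps12, a small-subunit protein, and Eef2, the translocase, at 3656, 2701 and 2616 TPM in the mean of all libraries, then Rpl8, Rps24 and Rps15 at 2473, 2406 and 2353 TPM, Rps7 at 2287 TPM and Rpl17 at 2149 TPM. The spread between WT libraries was wide, for instance ± 986 TPM for Rps12 (SD, n = 3). It does not measure how certain this order is, since genes are ranked within a library. Rplp1 was above Rps12 in every library, at 3535 and 3114 against 2682 and 2351 TPM in TET2KO libraries. In WT libraries it was at 3761, 2937 and 4933 against 2719, 1894 and 3857 TPM. Rps12 was above Eef2 in TET2KO replicate 1 (Eef2 at 2593 TPM) and below it in TET2KO replicate 2 (Eef2 at 2405 TPM). Initiation factors were less abundant: Eif1, which keeps the scanning ribosome in its open form, averaged 971 TPM, the helicase Eif4a1 503 TPM, and Eif4e, the cap-binding protein, only 24.5 TPM.

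**Figure D1:**
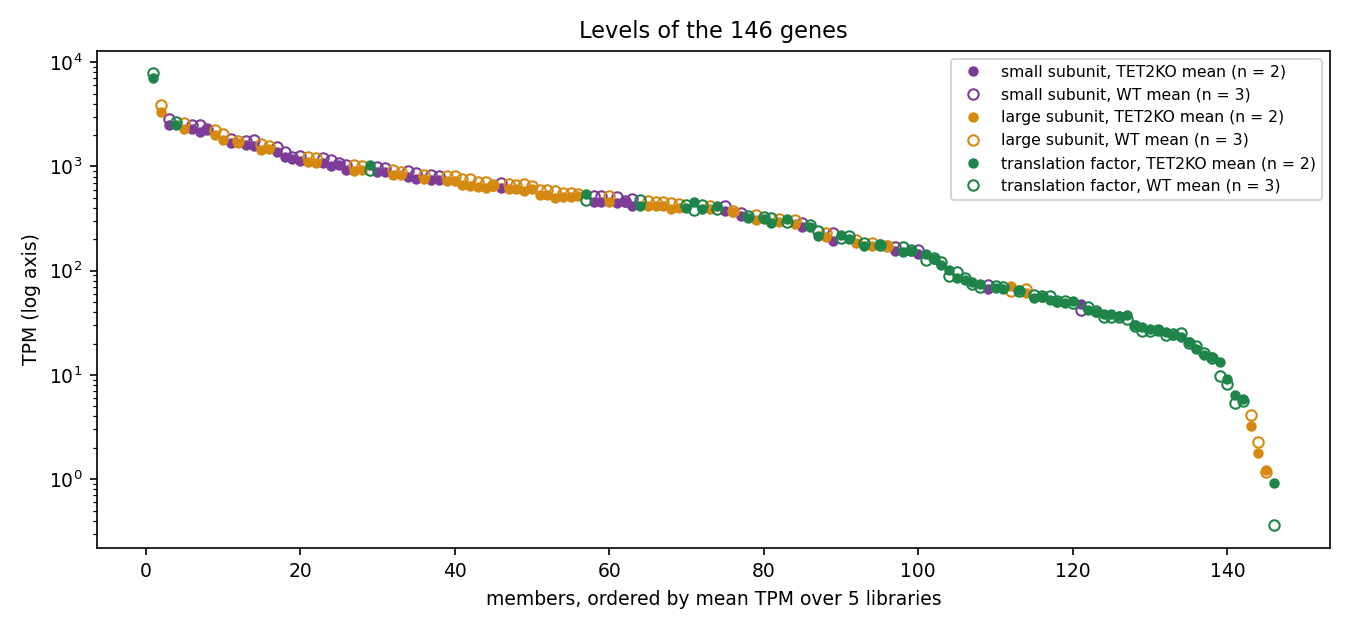
Mean level of each of the 146 genes in TPM (log axis), ordered by the mean of all 5 libraries. Filled points are TET2KO means (n = 2) and open points WT means (n = 3). Eef1a1 stands first at 7532 TPM, core ribosomal proteins fill the upper range down to 164 TPM, and most factors lie lower.

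A pyrimidine tract at the transcription start was more common among the ribosomal proteins than among all promoters, while the factors were nearer to all promoters. RefSeq start-site windows (GRCm38.p6) were found for 62 ribosomal proteins and 46 factors. Runs of C or T on the sense strand were measured within the 20 bases on either side of the start, and only by their part inside. A run of at least 8 was present in 45.2% of the ribosomal protein windows and 21.7% of the factor windows, against 15.9% of all 27025 promoters. The median longest run was 7 bases for ribosomal proteins and 4 for factors, against 5 for all promoters. The examples below carry such a run in capitals, read 5′ to 3′ on the gene's own strand from 40 bases before the start, and they include genes whose values are given further on. Rps6 is the S6 kinase substrate, Rpl7a, Rpl14 and Rpl35 are large-subunit proteins, Rps24 and Rps27 small-subunit proteins, and Eif3f and Eif3l subunits of the eIF3 scaffold.
Rps6 (chr4:86857348-86857407, minus strand): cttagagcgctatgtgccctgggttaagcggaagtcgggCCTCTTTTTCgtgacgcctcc
Rpl7a (chr2:26910767-26910826, plus strand): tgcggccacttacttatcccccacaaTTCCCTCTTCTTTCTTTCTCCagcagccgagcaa
Rpl14 (chr9:120571477-120571536, plus strand): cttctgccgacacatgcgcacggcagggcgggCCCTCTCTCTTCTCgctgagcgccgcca
Rpl35 (chr2:39005112-39005171, minus strand): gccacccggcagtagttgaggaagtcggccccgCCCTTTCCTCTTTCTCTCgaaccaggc
Rps24 (chr14:24490638-24490697, plus strand): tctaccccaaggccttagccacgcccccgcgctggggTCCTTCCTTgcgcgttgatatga
Rps27 (chr3:90213629-90213688, minus strand): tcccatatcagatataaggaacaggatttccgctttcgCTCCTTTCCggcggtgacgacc
Eef1a1 (chr9:78481705-78481764, minus strand): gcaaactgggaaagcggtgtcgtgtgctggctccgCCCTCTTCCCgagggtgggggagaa
Eif3f (chr7:108934375-108934434, plus strand): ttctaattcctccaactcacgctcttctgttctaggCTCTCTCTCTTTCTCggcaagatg
Eif3l (chr15:79075183-79075242, plus strand): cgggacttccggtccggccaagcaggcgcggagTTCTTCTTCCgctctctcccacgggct
In a further set the longest run within 20 bases of the start, again in capitals, is short. Eif4e and Eif5a, a factor that carries the modified amino acid hypusine, have library patterns unlike those of the ribosomal proteins (below), and Rps2, a small-subunit protein, has the smallest p of the ribosomal proteins.
Rps2 (chr17:24720023-24720082, plus strand): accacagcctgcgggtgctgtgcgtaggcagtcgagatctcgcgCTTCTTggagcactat
Eif4e (chr3:138526151-138526210, plus strand): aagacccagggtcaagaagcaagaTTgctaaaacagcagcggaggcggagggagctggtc
Eif5a (chr11:69921939-69921998, minus strand): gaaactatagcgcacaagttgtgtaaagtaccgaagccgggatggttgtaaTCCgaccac
Over the window from 250 bases before to 50 bases after the start, and on both strands, CCGGAAG, the core bound by ETS factors, was found in 40.3% of ribosomal protein and 30.4% of factor windows, against 9.12% of all promoters. CACGTG, the E-box that Myc can bind, was found in 8.06% and 21.7%, against 7.24%, and TATAAA in 9.68% and 10.9%, against 14.2%. GGGCGG, the GC box, was found in 59.7% and 73.9%, against 35.9%, and AAGATGG, a YY1 core, in 14.5% and 15.2%, against 6.48%. These are letter matches and say nothing of binding in these cells.

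The ribosomal proteins varied together from library to library, and the widest steps were between WT libraries. Their share of all counts was 3.03% and 2.71% in TET2KO libraries, against 3.46%, 2.27% and 4.18% in WT libraries, so that both TET2KO values lay inside the WT range. In bulk RNA, fewer cells of a type that is rich in these transcripts and less of them per cell cannot be told apart. The group means were 2.87 ± 0.227% in TET2KO (SD, n = 2) and 3.30 ± 0.964% in WT (SD, n = 3). The difference of -0.435 percentage points was smaller than the WT SD. It was 0.00492 without WT replicate 3 and -0.950 without WT replicate 2. The factors took 1.66% and 1.58% of counts in TET2KO libraries, against 1.82%, 1.44% and 1.98% in WT libraries, a narrower spread in the same library order.

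**Figure D2:**
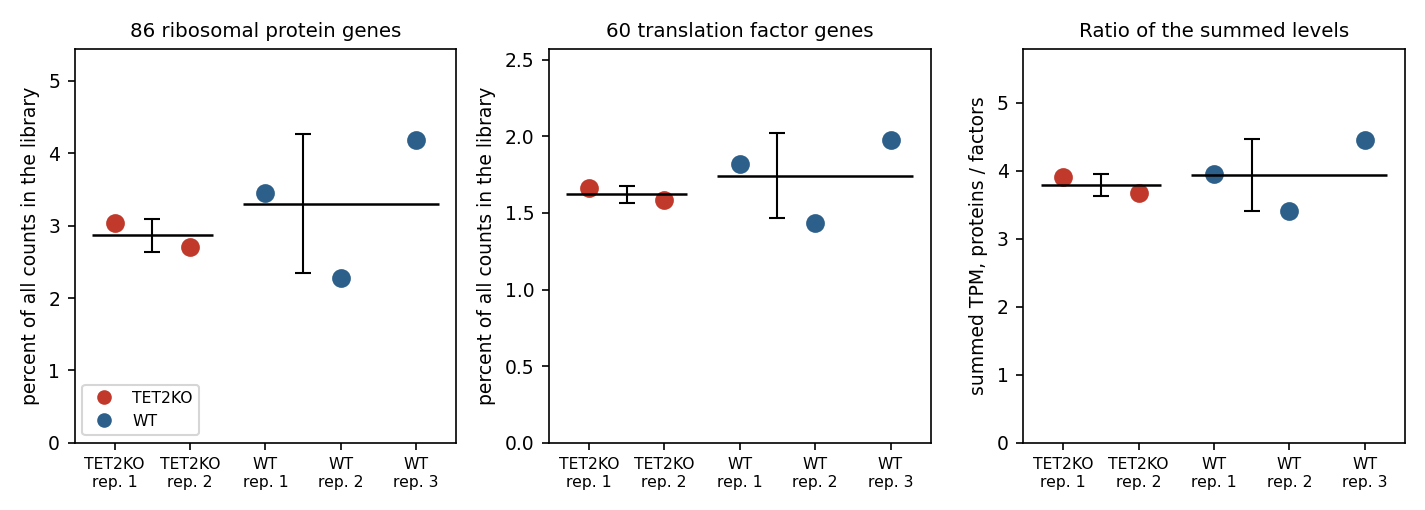
Percent of each library's counts taken by ribosomal proteins (left) and translation factors (middle), and the ratio of their summed TPM (right), with TET2KO in red and WT in blue. Points are libraries, horizontal lines group means and bars SD (n = 2 and 3). Both TET2KO libraries lie between WT replicate 2 and WT replicate 1 in every panel.

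The balance between the classes followed the same order. Summed TPM of ribosomal proteins over that of factors was 3.91 and 3.68 in TET2KO libraries, against 3.96, 3.41 and 4.45 in WT libraries, or 3.79 ± 0.166 (SD, n = 2) against 3.94 ± 0.524 (SD, n = 3). This ratio within a library needs no scaling between libraries. The TET2KO values again lay between those of WT replicates 2 and 1, and the difference of the means, -0.146, was 0.110 without WT replicate 3 and -0.413 without WT replicate 2. Both subunits kept step with each other. Summed small-subunit over large-subunit TPM was 0.915 and 0.890 in TET2KO libraries, against 0.884, 0.854 and 0.941 in WT libraries.

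The shared pattern was visible gene by gene. On the TMM scale (CPM, read counts per library size after scaling the libraries to one another), all 77 core proteins were highest in WT replicate 3, as were 23 of the 60 factors and 23.3% of all genes tested. Their median deviation from each gene's own 5-library mean, in log2 CPM, was -0.10 and -0.27 in TET2KO libraries, against 0.10, -0.15 and 0.43 in WT libraries. All 77 lay within 0.25 of that library median in both TET2KO libraries and in WT replicate 1, 72 did in WT replicate 2 and 75 in WT replicate 3. The factors were less uniform, with an interquartile range of 0.14 in each TET2KO library, against 0.15, 0.30 and 0.23 in the WT libraries. The core proteins had 0.09 and 0.05 in TET2KO libraries, against 0.13, 0.16 and 0.15 in WT libraries. The place of WT replicate 2 depended on scaling: its TMM factor of 0.835, against 1.02 to 1.06 in the other 4 libraries, lifted its values, so that it was lowest for 23 of the 86 ribosomal proteins on the TMM scale and for 78 on library totals. On library totals both TET2KO libraries lay within the WT range for 81 of 86 ribosomal proteins, and on the TMM scale for 27.

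**Figure D3:**
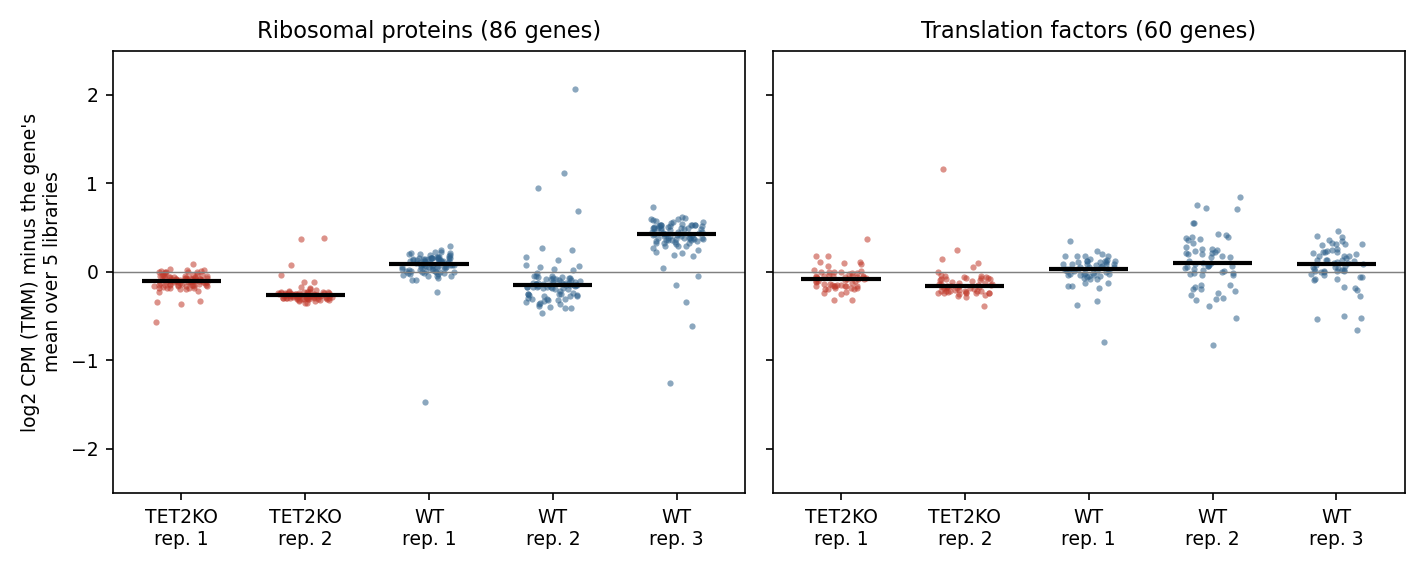
Each member's log2 CPM (TMM) minus its mean over the 5 libraries, for ribosomal proteins (left) and factors (right), with 1 point per gene, TET2KO libraries in red, WT libraries in blue and black bars at the medians. Most ribosomal proteins form narrow clouds that shift together, highest in WT replicate 3, with a few points apart, while factors scatter widely in WT replicate 2.

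Markers of other cell types also differed between the libraries. The summed share of the 9 B cell markers, none at 0 in any library, was 0.424% and 0.264% of counts in TET2KO libraries, against 0.488%, 0.120% and 0.610% in WT libraries, which is the library order of the ribosomal protein share. On library totals, 8 of the 9 B cell genes and 70 of the 86 ribosomal proteins had exactly this order (WT replicate 3 highest, then WT replicate 1, TET2KO replicates 1 and 2, and WT replicate 2 lowest), against 7.03% of all genes tested. On the TMM scale 8 B cell genes and 21 ribosomal proteins had it, against 5.21% of all genes. The order was read from the ribosomal protein share itself. The 12 T and NK cell markers, none at 0, summed to 0.0554% and 0.0483% in TET2KO libraries, against 0.0564%, 0.0237% and 0.0633% in WT libraries, the same library order. Of these 12 genes, 4 had exactly this order on library totals and 5 on the TMM scale. The summed share of 14 other transcripts with a TOP motif (below) was also in this order. Singly, 9 of those 14 genes had it on library totals and 0 on the TMM scale. The 8 general leukocyte markers summed to 0.487% and 0.447% in TET2KO libraries, against 0.617%, 0.511% and 0.575% in WT libraries, with all 8 log2 fold changes below 0 and a median of -0.33. All 6 erythroid markers tested were below 0, with a median of -0.47, as were all 9 B cell markers (median -0.37) and all 12 macrophage markers tested (median -1.10). Of all genes, 58.4% were below 0. Above 0 were all 6 mesothelial markers (median 1.71), 8 of 10 epithelial markers (median 0.82) and 7 of 8 fibroblast markers (median 0.60). So were 6 of 7 pericyte and smooth muscle markers tested (median 0.39), all 6 platelet markers (median 0.38) and 5 of 8 neutrophil markers (median 0.30). The T and NK cell markers were split, with 6 above and 6 below 0 (median 0.00). The macrophage markers ran nearly the other way. All 12 of those tested, from a list of 13, were highest in WT replicate 2 and 11 were lowest in WT replicate 3, with none at 0 and a summed share of 0.649% and 1.203% in TET2KO libraries, against 1.25%, 3.89% and 0.438% in WT libraries. All 16 endothelial markers were higher in both TET2KO libraries than in every WT library on the TMM scale, as were 12.4% of all genes, with summed shares of 0.696% and 0.695% in TET2KO libraries, against 0.398%, 0.242% and 0.4995% in WT libraries. Malat1, Neat1 and the mitochondrially encoded mRNAs, 11 transcripts that vary with RNA quality and none of them at 0, summed to 1.69% and 1.58% of counts in TET2KO libraries, against 1.70%, 1.49% and 1.68% in WT libraries. The part of these differences in the results on translation genes was not tested.

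Between the genotypes, no translation gene passed the test. In the edgeR quasi-likelihood fit, with p adjusted by Benjamini-Hochberg over 18727 genes, 0 of 86 ribosomal proteins and 0 of 60 factors had an adjusted p under 0.05, against 0.0% of all genes. DESeq2 called 60 genes (0.32%) and limma-voom none, and no member was called by either. At an unadjusted p under 0.05, edgeR gave no ribosomal protein and 2 factors, Eif3k and Eif3l, both lower in TET2KO, against 0.539% of all genes lower and 5.32% higher. DESeq2 gave 1 ribosomal protein, Rps2, and no factor, against 0.555% of all genes lower, and limma-voom gave 1 ribosomal protein and 2 factors, against 0.491%.

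The ribosomal protein fold changes nevertheless lay close together and on one side. All 86 log2 fold changes (TET2KO over WT) were below 0 on the TMM scale, where 58.4% of all genes were below 0. The median was -0.32, with a range of -0.74 to -0.02, and the median of all genes was -0.08. Among the 77 core proteins the range was only -0.44 to -0.17, and 73 lay within 0.1 of their median. Scaling moved these values together with those of all genes. With library totals the median was -0.20, 84 of 86 were below 0 and the median of all genes was 0.06. On log2(TPM + 1) the median was -0.09, 77 of 86 were below 0 and that of all genes was 0.13. Relative to the median of all genes, the ribosomal protein median was therefore -0.24, -0.27 and -0.22 on the 3 scales. Set against the spread of the controls in log2 CPM, the fold change was smaller than the distance between the highest and lowest WT library for 81 of the 86 genes, against 85.0% of all genes above 0 in every WT library. It was smaller than the WT SD for 41 of the 86, or 47.7%, against 65.8% of those genes.

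**Figure D4:**
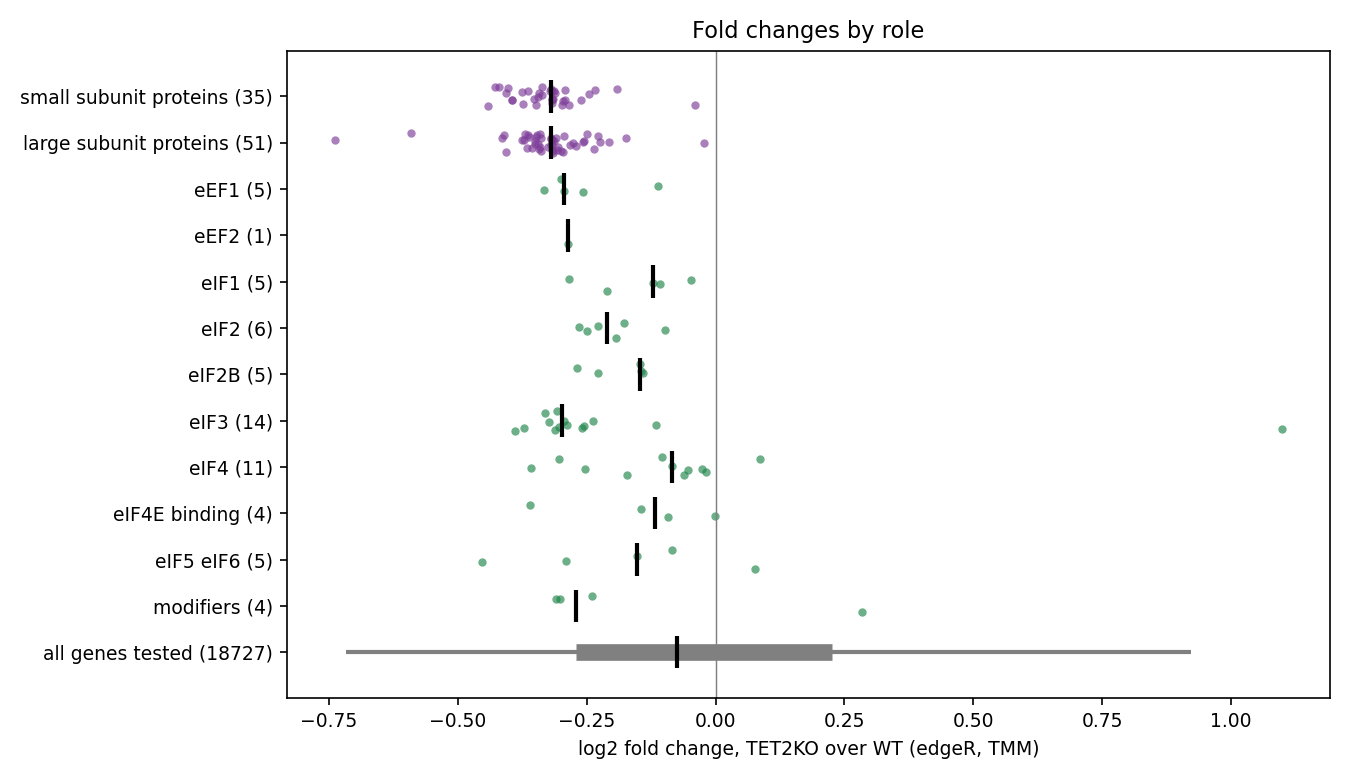
Log2 fold change of each member, TET2KO over WT, by role, with the number of genes in brackets and black bars at the medians. The grey bar for all genes tested spans the 25th to 75th percentile of genes and the thin line the 5th to 95th percentile. Ribosomal proteins cluster near -0.32, eIF3 subunits near -0.30 and eIF4 factors nearer to the median of all genes at -0.08, and Eif3j2 lies alone at 1.10.

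Single libraries set how far the ribosomal proteins lay from the rest. Without WT replicate 3 their median was -0.12, where that of all genes was -0.01, and 79 of 86 were below 0 (51.3% of all genes), with none lower at an unadjusted p under 0.05 (1.3% of all genes). Without WT replicate 2 it was -0.43, with 82 of the 85 then tested below 0 (49.2% of all genes), and 28 of them were lower at an unadjusted p under 0.05 (32.9%, against 2.45% of all genes), with none under 0.05 after adjustment and a smallest edgeR adjusted p of 0.453. Both TET2KO libraries were below both WT replicates 1 and 3 for 78 of 86 ribosomal proteins on the TMM scale, against 33 of 60 factors and 24.2% of all genes. They were below all 3 WT libraries for 28 of 86 on the TMM scale, against 12.4% of all genes, for 3 of 86 on library totals (4.3% of all genes), and for none on the TPM scale (2.3% of all genes).

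Rps2, on chromosome 17 of GRCm38 (24718116 to 24721929, plus strand), had the smallest p of the ribosomal proteins. It was at 510 and 494 CPM in TET2KO libraries, against 649, 670 and 698 CPM in WT libraries, all TMM-scaled. The TET2KO libraries lay below every WT library, and its log2 fold change was -0.42 (SE 0.18, edgeR adjusted p = 0.864). Rpl7a, a large-subunit protein with one of the longest pyrimidine runs shown above, was at 404 and 406 CPM in TET2KO libraries, against 514, 490 and 541 CPM in WT libraries. Here too the groups did not overlap, with a log2 fold change of -0.35 (SE 0.17). Rpl14 and Rplp1 had log2 fold changes of -0.36 (SE 0.19) and -0.41 (SE 0.22), and Rpl7l1, a paralog of Rpl7 known from pre-ribosomes, -0.34 (SE 0.15). Leaving out any 1 library gave -0.42 to -0.23 for Rpl14 and -0.51 to -0.24 for Rplp1. Rplp0, the scaffold of the stalk, was at 836 and 809 CPM in TET2KO libraries, against 1052, 860 and 1233 CPM in WT libraries. Its groups did not overlap, but WT replicate 2 was close to the TET2KO libraries.

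In 58 of the 86 ribosomal proteins the groups overlapped on the TMM scale, and in 27 both TET2KO libraries lay within the WT range, as for Rps6. It was at 403 and 362 CPM in TET2KO libraries, against 470, 348 and 595 CPM in WT libraries, with a log2 fold change of -0.30 (SE 0.27) that was -0.06 without WT replicate 3 and -0.45 without WT replicate 2. For Rps24 the values were 572 and 477 CPM in TET2KO libraries, against 602, 444 and 884 CPM in WT libraries, and the log2 fold change of -0.30 (SE 0.33) was 0.04 without WT replicate 3 and -0.48 without WT replicate 2. Rps27 had 391 and 320 CPM in TET2KO libraries, against 397, 283 and 652 CPM in WT libraries. WT replicate 3 alone stood well above both TET2KO libraries, and the value of -0.32 (SE 0.38) was 0.10 without it and -0.54 without WT replicate 2. Among the abundant members, Rps12, Rps15, Rpl8 and Rpl17 had log2 fold changes between -0.41 and -0.32, between -0.15 and -0.06 without WT replicate 3, and between -0.56 and -0.45 without WT replicate 2.

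Among the factors, the eIF3 genes and the eEF1 and eEF2 genes had the lowest medians in TET2KO relative to WT, on the TMM scale, library totals and log2(TPM + 1). eIF3 is the multi-subunit scaffold that holds the small subunit, the initiator tRNA and the eIF4F complex together. Of its 14 genes, 13 had log2 fold changes below 0 on the TMM scale, 12 with library totals and 12 on log2(TPM + 1). Their median was -0.30, which was -0.22 relative to all genes, and -0.22 and -0.21 relative to all genes on the other 2 scales. Without WT replicate 3 it was -0.20 relative to all genes, where the median of the ribosomal proteins was -0.11, and without WT replicate 2 the medians relative to all genes were -0.28 and -0.44. In 10 of the 14 both TET2KO libraries were below every WT library, against 12.4% of all genes, in 5 of 14 on library totals (4.3%), and in 1 of 14 on the TPM scale (2.3%).

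Eif3k (chromosome 7, 28971372 to 28981864, minus strand) was at 64.7 and 61.5 CPM in TET2KO libraries, against 80.1, 88.1 and 79.7 CPM in WT libraries. The groups did not overlap and the WT libraries were close together, with means of 63.1 ± 2.26 CPM in TET2KO (SD, n = 2) and 82.6 ± 4.77 CPM in WT (SD, n = 3). The log2 fold change of Eif3k was -0.39 (SE 0.14, edgeR adjusted p = 0.821). In TPM, Eif3k was at 87.6 and 83.2 in TET2KO libraries, against 103.9, 86.05 and 100.3 in WT libraries. There the groups overlapped through WT replicate 2, and the difference on log2(TPM + 1) was -0.17. Eif3l (chromosome 15, 79075179 to 79094405, plus strand), which pairs with Eif3k in the complex, was at 81.1 and 74.6 CPM in TET2KO libraries, against 95.03, 104 and 103 CPM in WT libraries, a log2 fold change of -0.37 (SE 0.15, edgeR adjusted p = 0.842). Both genes stayed between -0.44 and -0.31 when any 1 library was left out, and Eif3l was at -0.16 on log2(TPM + 1). Eif3g, Eif3h and Eif3i, further subunits, had log2 fold changes of -0.30, -0.31 and -0.31 (SE 0.15 each), with both TET2KO libraries below every WT library. Eif3a, the largest subunit, was at 437 and 445 CPM in TET2KO libraries, against 479, 662 and 475 CPM in WT libraries, so WT replicate 2 held the high value. The one eIF3 gene above 0 was Eif3j2, a near copy of Eif3j1, with 13 and 26 raw counts in TET2KO libraries, against 6, 11 and 8 in WT libraries. Its log2 fold change of 1.10 (SE 0.51, edgeR adjusted p = 0.864) rests on these few reads, which the counting may have shared with Eif3j1.

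The eIF2 and eIF2B genes had smaller values. Most encode the carrier of the initiator tRNA or the complex that recharges it with GTP. Eif2a and Eif2d, grouped with eIF2 by symbol, are separate factors and not subunits of that carrier. In mean TPM they were at 27.1 and 15.0 in TET2KO, against 26.7 and 14.7 in WT. All 6 eIF2 and all 5 eIF2B genes were below 0 on the TMM scale, with medians of -0.21 and -0.15. With library totals 5 of 6 and 4 of 5 were below 0, and on log2(TPM + 1) 3 of 6 and 2 of 5, with medians of 0.00 and 0.06 there. Relative to all genes on the TMM scale the medians were -0.14 and -0.07. Eif2s1, whose protein is the target of the stress kinases, was at 45.8 and 48.5 CPM in TET2KO libraries, against 46.6, 69.3 and 52.4 CPM in WT libraries. The TET2KO values were near those of WT replicates 1 and 3, and WT replicate 2 was high. Eif2b5, the catalytic subunit of eIF2B, was at 39.2 and 34.9 CPM in TET2KO libraries, against 42.1, 40.4 and 51.5 CPM in WT libraries, without overlap, and had a log2 fold change of -0.27 (SE 0.18). Leaving out any 1 library gave -0.36 to -0.12 for Eif2b5.

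The eIF4 genes, which bind and unwind the capped end of mRNA, stood nearest to the background. The 11 genes had a median log2 fold change of -0.09 on the TMM scale, where all genes had -0.08, and 10 of them were below 0 on that scale, where library totals put 4 and log2(TPM + 1) put 3 below 0. The eIF4 gene with the smallest p was Eif4b, a cofactor of the helicase, at 299 and 311 CPM in TET2KO libraries, against 392.1, 399 and 383 CPM in WT libraries. On this TMM scale the groups did not overlap, with a log2 fold change of -0.36 (SE 0.16, edgeR adjusted p = 0.864), and the same held for 3 of the 11 eIF4 genes, against 12.4% of all genes. In TPM, Eif4b was at 284 and 295 in TET2KO libraries, against 356, 273 and 337 in WT libraries, so that WT replicate 2 was the lowest library there, and its difference on log2(TPM + 1) was -0.15. Eif4g1, the scaffold of the cap complex, was at 445 and 436 CPM in TET2KO libraries, against 421, 540 and 457 CPM in WT libraries, with overlap. Eif4a1 and Eif4a2, paralogous helicases, differed between libraries in their proportion: Eif4a2 TPM was 97.6% and 73.9% of Eif4a1 TPM in TET2KO libraries, against 95.7%, 47.8% and 102% in WT libraries. Eif4e had 39.96 and 38.8 CPM in TET2KO libraries, against 38.9, 64.6 and 42.3 CPM in WT libraries, so that only WT replicate 2 stood apart. Eif4ebp1, an inhibitor of Eif4e that mTORC1 phosphorylates, was at 13.1 and 14.8 CPM in TET2KO libraries, against 18.3, 25.7 and 9.85 CPM in WT libraries, with a log2 fold change of -0.36 (SE 0.41). The group of 4 eIF4E-binding genes had a median of -0.12. The other inhibitors Eif4ebp2 and Eif4ebp3 had log2 fold changes of -0.14 (SE 0.22) and -0.00 (SE 0.41).

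The eEF1 genes had a median close to that of the ribosomal proteins. These 5 genes, grouped by symbol, had a median log2 fold change of -0.29 on the TMM scale. All were below 0 there, and 4 of 5 were below 0 on each of the other scales. They include Eef1e1, whose protein belongs to the aminoacyl-tRNA synthetase complex and is not an elongation factor. Its level was 37.4 ± 6.23 TPM in TET2KO (SD, n = 2) and 34.5 ± 4.39 TPM in WT (SD, n = 3). Eef1a1 was at 4977 and 4705 CPM in TET2KO libraries, against 5887, 5494 and 6912 CPM in WT libraries, without overlap on the TMM scale. Its log2 fold change was -0.33 (SE 0.34). On the TPM scale WT replicate 2, at 5804 TPM, was instead the lowest library, with TET2KO at 7294 and 6885 TPM. Eef1d, of the complex that recharges Eef1a1 with GTP, was at 87.2 and 83.5 CPM in TET2KO libraries, against 102, 104 and 110 CPM in WT libraries, a log2 fold change of -0.30 (SE 0.14). Eef2 was at 2199 and 2043 CPM in TET2KO libraries, against 2569, 2072 and 3118 CPM in WT libraries. Its log2 fold change of -0.29 (SE 0.30) was -0.10 without WT replicate 3. Eef2k, the kinase that inhibits Eef2, ran differently across libraries, with 29.8 and 33.8 CPM in TET2KO libraries, against 36.1, 57.1 and 24.6 CPM in WT libraries. Eif5a was likewise highest in WT replicate 2, at 257 and 290 CPM in TET2KO libraries, against 316, 541 and 266 CPM in WT libraries, with a log2 fold change of -0.45 (SE 0.34) that was -0.06 without WT replicate 2. Eif6, which keeps free large subunits apart from small ones, had a log2 fold change of -0.15 (SE 0.16), and the low-level paralog Eif5a2 0.08 (SE 0.23).

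**Figure D5:**
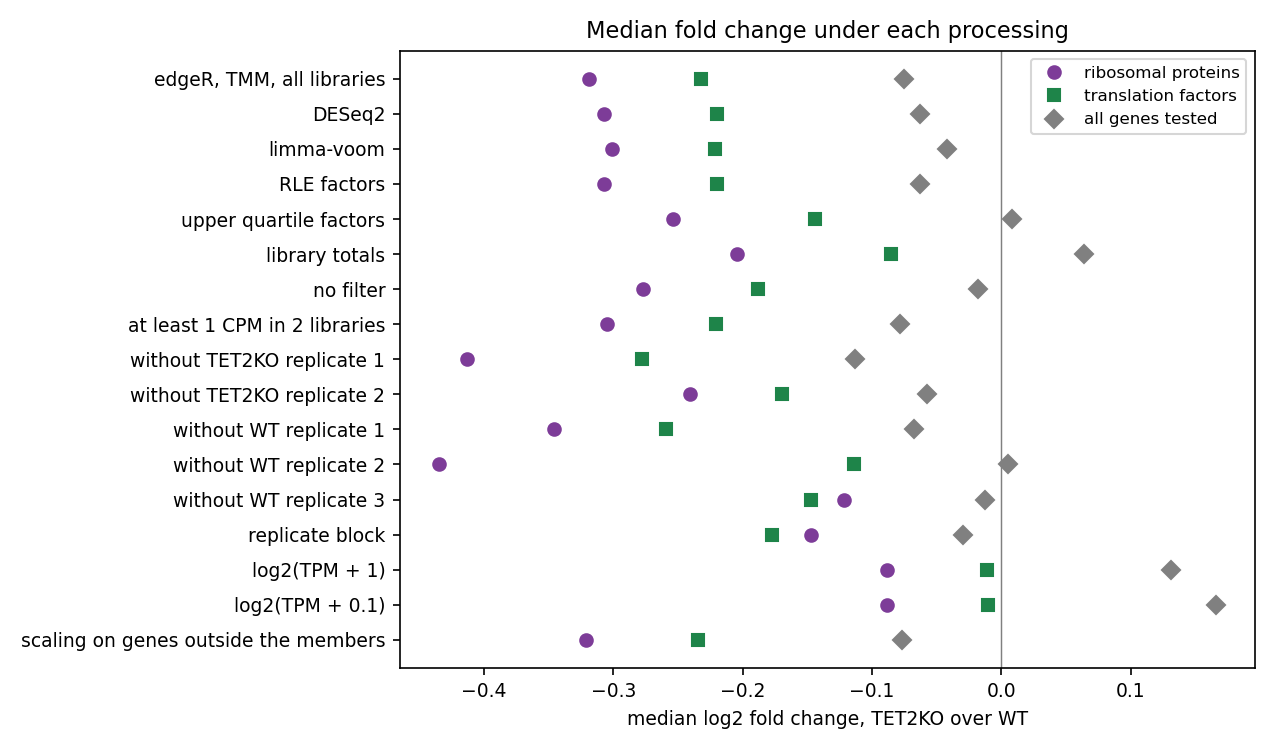
Median log2 fold change, TET2KO over WT, of ribosomal proteins (circles), translation factors (squares) and all genes tested (diamonds) under each processing. The circles lie left of the diamonds in every row, nearest to them without WT replicate 3 (-0.12 against -0.01), and left of the squares except without WT replicate 3 and with the replicate number as a block.

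The contrast between the classes turned on single WT libraries. The factors had a median log2 fold change of -0.23 on the TMM scale, with 56 of 60 below 0, against 40 of 60 with library totals and 31 of 60 on log2(TPM + 1). Relative to all genes it was -0.16, -0.15 and -0.14 on the 3 scales. The ribosomal protein median minus the factor median was -0.09, and it was 0.03 without WT replicate 3 and -0.32 without WT replicate 2. Both TET2KO libraries were below every WT library for 24 of 60 factors on the TMM scale (12.4% of all genes), for 9 of 60 on library totals (4.3%) and for 1 of 60 on the TPM scale (2.3%).

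Paralogs of core proteins did not all follow their partners across libraries. Rps27l, a low-level paralog of Rps27, was at 13.3 and 16.3 CPM in TET2KO libraries, against 14.3, 32.2 and 13.2 CPM in WT libraries. It was highest in WT replicate 2, where Rps27 was lowest, so that Rps27l TPM was 4.34% and 6.50% of Rps27 TPM in TET2KO libraries, against 4.59%, 14.5% and 2.58% in WT libraries. Rpl39l had 10 and 16 raw counts in TET2KO libraries, against 4, 48 and 8 in WT libraries, again highest in WT replicate 2, and 0.404% and 0.868% of the TPM of Rpl39 in TET2KO libraries, against 0.196%, 2.49% and 0.236% in WT libraries. Rpl3l, known from striated muscle, was the lowest ribosomal protein at 1.24 ± 0.417 TPM in TET2KO (SD, n = 2) and 1.17 ± 0.691 TPM in WT (SD, n = 3). Rpl22l1 kept nearer to Rpl22, at 38.1% and 39.3% of its TPM in TET2KO libraries, against 35.3%, 30.8% and 31.1% in WT libraries. Both TET2KO ratios lay above all WT ratios by less than the WT range, and the log2 fold changes were -0.02 (SE 0.18) for Rpl22l1 and -0.28 (SE 0.20) for Rpl22.

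Of the 86 ribosomal protein genes 4 are annotated as processed pseudogenes: Rps3a2, Rps3a3, Rpl6l and Rps4l. All but Rps4l are described here after their values were seen. Rps3a3 was as abundant as many core genes, with TPM of 68.1% and 68.3% of that of Rps3a1 in TET2KO libraries, against 72.3%, 65.04% and 66.7% in WT libraries. Its sequence matched 786 of the 795 coding bases of Rps3a1, with an identical run of 215 bases, longer than a read of 150 bp. Reads of the pair could therefore not be told apart along part of their length, and neither level is certain. Rps3a2 matched 99.5% and Rpl6l 98.7% of their parents' aligned bases. Rps4l matched only 79.9% of Rps4x, its longest identical run was 35 bases, and it was at 11.5 and 13.1 CPM in TET2KO libraries, against 11.6, 15.0 and 11.2 CPM in WT libraries. The contrast is visible in 60-base stretches counted from the first base of the parent's coding sequence, 201 to 260 for Rps3a1 and 475 to 534 for Rps4x, with capitals at the bases that differ, 2 in one pair and 20 in the other.
Rps3a1 (chromosome 3): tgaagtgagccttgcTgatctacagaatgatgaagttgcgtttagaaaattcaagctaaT
Rps3a3 (chromosome 13): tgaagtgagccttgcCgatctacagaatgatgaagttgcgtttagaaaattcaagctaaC
Rps4x (chromosome X): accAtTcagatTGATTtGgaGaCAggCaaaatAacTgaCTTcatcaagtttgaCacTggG
Rps4l (chromosome 6): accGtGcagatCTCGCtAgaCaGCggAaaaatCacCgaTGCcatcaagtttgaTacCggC
A further 193 of 287 -ps rows of this gene family held at least 1 count, and 41 of the 146 genes overlap a gene on the opposite strand, whose reads may be counted with theirs.

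Pathways around the ribosome were read from lists of named genes, none of which had a member past adjustment or at an unadjusted p under 0.05 in edgeR (0.0%, and 0.539% lower or 5.32% higher, among all genes). Of 14 other transcripts with a TOP motif, 12 had log2 fold changes below 0, and the median of the 14 was -0.23. The 2 above 0, Gas5 (0.11) and Snhg1 (0.097), are non-coding transcripts. Fau, whose product is cleaved to a small-subunit protein, had -0.44 (SE 0.23), and Naca, a chaperone at the nascent chain exit, -0.28 (SE 0.15). Of 50 ribosome biogenesis genes, 48 were below 0, with a median of -0.19, including Pes1 at -0.33 (SE 0.14) and Polr1a, the catalytic subunit of RNA polymerase I, at -0.35 (SE 0.16). Of 22 aminoacyl-tRNA synthetase genes 21 were below 0, with a median of -0.25. Of 25 genes of the mTORC1 and S6 kinase pathway 24 were below 0, also with a median near that of the factors, -0.23. These counts are of the TMM scale, where 58.4% of all genes were below 0. There 17 of the 25 mTORC1 pathway genes and 18 of the 22 synthetase genes were highest in WT replicate 2. Of all 18727 genes 6551 were. So were 3 TOP transcripts and 10 biogenesis genes, while 10 and 29 were highest in WT replicate 3. Median deviations of the mTORC1 genes from their 5-library means were -0.12 and -0.13 in TET2KO libraries, against -0.02, 0.39 and -0.15 in WT libraries. The part of WT replicate 2 in these medians was not tested. On log2(TPM + 1), 7, 21, 13 and 14 genes of the 4 lists were below 0, and relative to all genes their medians on the TMM scale were -0.15, -0.12, -0.17 and -0.15. The Myc family (9 genes), termination and rescue (12 genes) and the eIF2 kinases with integrated stress targets (19 genes) had medians of -0.09, -0.15 and -0.02, with 5, 9 and 10 genes below 0.

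In the authors' deposited table, whose values match WT replicate 3 with both TET2KO libraries over WT replicates 1 and 2, most ribosomal proteins had the other direction. Most factors were below 0 there too. There 71 of 86 ribosomal proteins had log2 fold changes above 0, with a median of 0.11, and 20 of 60 factors did, with a median of -0.08, against 9240 of 18019 genes above 0 in all. In the authors' deposited table no member had an adjusted p under 0.05 (1.66% of all genes did), no ribosomal protein and 4 factors had an unadjusted p under 0.05 (14.1% of all genes), and none of the 146 was in the authors' shorter table of 217 genes. The 4 factors in the authors' deposited table were Eif4ebp1, Eif5a, Eef2k and Eif5b, with log2 fold changes of -0.78, -0.64, -0.64 and -0.41.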

How the data were processed

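Per the labels' protocols, poly(A) RNA was sequenced as paired reads of 150 bp. The submitters' processing notes name GRCm38, STAR 2.5.2b, Trimmomatic 0.36, DESeq2 (no version) and featureCounts, with Subread at 1.5.2. The strand setting and the treatment of multi-mapping reads are not given in the sources used here. The authors deposited whole-number read counts, TPM values, and a comparison with log2 fold changes, p-values and size-factor-normalised signal. Library groups were taken from the labels. Counts were tested with edgeR 4.0.16 in R 4.3.3 (quasi-likelihood F test, TMM factors, filterByExpr, Benjamini-Hochberg over 18727 genes, threshold 0.05), with limma 3.58.1 (also on log2 of TPM plus a pseudocount of 1 or 0.1) and DESeq2 1.42.0 as alternatives. A standard error is the log2 fold change over the square root of F. The functions were tested on simulated counts. The biological coefficient of variation was 0.339, and at these depths counting error was small for core genes but not for Rpl3l, Rpl39l or Eif3j2. Members and gene lists were chosen with earlier results of these data known. Named genes were those of each class with the smallest p, the most and least abundant, fixed genes of each role, paralog pairs, and the 2 of a list with the smallest p, of which some are printed. Rps15a, Rps7, Rpl35, Eif3f, Eif5b, Rps3a1, Rps3a2, Rps3a3, Rps4x and Rpl6l were named after their values were seen. Promoter windows and coding sequences came from RefSeq (GRCm38.p6) and GENCODE M21 tables of the same build.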

Additional observations from a re-analysis of the deposited data

How the results depend on the processing

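No translation gene passed the adjusted threshold under any alternative run, and over all genes only DESeq2 made calls, 60. The ribosomal protein median log2 fold change was below that of all genes under each. The translation factor median moved by more than its replicate SD with upper quartile factors (-0.14), library totals (-0.086), log2(TPM + 1) (-0.011) and log2(TPM + 0.1) (-0.010). It also did so without WT replicate 2 (-0.11). Leaving out 1 library gave -0.28 to -0.11 for that median and -0.43 to -0.12 for the ribosomal proteins. Scaling on genes outside the members, chosen after seeing the data, gave -0.23 and -0.32.

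The replicate numbers are shared by 2 pairs only and no label says what they mark. Deviations from group means correlated at 0.220 for replicates 1, at 0.493 for replicates 2 and at 0.455 for TET2KO replicate 1 with WT replicate 3. With 2 TET2KO libraries the deviations of one mirror those of the other. These correlations are thus tied to one another and cannot show whether the numbers pair the libraries. With the replicate block the factor median was -0.18 and the ribosomal protein median -0.15, with no gene called, and Eif1 (0.062), Eif4ebp2 (0.0075), Eif4ebp3 (0.080), Rpl22l1 (0.070), Rps24 (0.014) and Rps27 (0.077) were above 0.

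Of 46 named genes, 29 kept their sign throughout. None of the 46 was called in any run, so no reversal could concern a called gene. With upper quartile factors, Eif1 (0.028), Eif4a1 (0.047), Eif4ebp3 (0.067), Rpl22l1 (0.054) and Rps4l (0.056) were above 0, and with library totals the same 5 (0.080, 0.11, 0.11, 0.11 and 0.12) and Eif4g1 (0.049). On log2(TPM + 1), Eif1 (0.17), Eif4a1 (0.18), Eif4ebp2 (0.080), Eif4ebp3 (0.18), Eif4g1 (0.12), Eif6 (0.061), Rpl22l1 (0.19), Rpl39l (0.010), Rpl3l (0.086) and Rps4l (0.18) were. With a pseudocount of 0.1 the same genes were at 0.17, 0.18, 0.081, 0.20, 0.12, 0.062, 0.19, 0.18, 0.22 and 0.18. Without a filter, Eif4ebp3 (0.042), Rpl22l1 (0.021) and Rps4l (0.0057) were, Rpl3l was with limma-voom (0.041), and Eif4ebp3 with DESeq2 (0.010), RLE factors (0.010) or a minimum of 1 CPM (0.012). Leaving out 1 library spanned 0 for Eef2k (-0.52 to 0.10), Eif1 (-0.17 to 0.10), Eif4a1 (-0.14 to 0.18), Eif4a2 (-0.043 to 0.20), Eif4ebp1 (-0.63 to 0.027), Eif4ebp2 (-0.30 to 0.036), Eif4ebp3 (-0.43 to 0.33), Eif4g1 (-0.18 to 0.030), Eif5a2 (-0.020 to 0.19), Rpl22l1 (-0.14 to 0.10), Rpl3l (-0.60 to 0.55), Rps24 (-0.48 to 0.036), Rps27 (-0.54 to 0.10), Rps27l (-0.63 to 0.14) and Rps4l (-0.14 to 0.13). The cause was not tested. With 2 TET2KO libraries, leaving 1 out assumes the other varies like WT.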
